A study of Homo sapiens with 8 samples.

Results

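Most clustered histone genes are replication-dependent genes for the linker histone H1 and the core histones H2A, H2B, H3 and H4. The count file names clustered histone genes by symbols such as HIST1H2BK. They were taken as all rows whose symbol starts with HIST, a cluster digit and H, which gave 73 of 26364 genes: 6 for H1, 18 for H2A, 20 for H2B, 14 for H3 and 15 for H4. In the GENCODE 29 annotation 56 of them lie on chromosome 6, 16 on chromosome 1 and 1 on chromosome 12. It labels HIST2H2BA, HIST2H2BC and HIST1H2APS1 as pseudogenes, which were kept among the members. The variant histone genes outside the clusters, such as H2AFX, carry other symbols and are described as a separate list.

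RNA was sequenced from stable clones of LN229, a human glioblastoma cell line, kept under G418 as selection marker. Clone Surv-GFP (D6) carries pcDNA3.1-survivin-eGFP with a functional nuclear export sequence (NES), and its Survivin is labelled as predominantly cytoplasmic. Clone SurvNESmut-GFP (L2) carries the plasmid with a pair of leucines of the NES replaced by alanine, and its Survivin is labelled as predominantly nuclear. Both constructs are plasmid copies added to the line's own BIRC5, the gene of Survivin. Cells of both clones were taken untreated or after 48 h with 50 µM temozolomide (TMZ), an alkylating drug that methylates DNA, which makes 4 groups of 2 libraries, a and b. Each construct is represented by 1 clone, so a difference between the clones cannot be told apart from a difference between the constructs. The comparisons address how TMZ changes histone transcripts and whether this differs between the clones.

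Clustered histone genes have no introns, and most of them are transcribed during S phase, when new chromatin needs histones. Their mRNA usually ends without a poly(A) tail: it is cut just after a conserved stem-loop, which is bound by the stem-loop binding protein SLBP. A small number of these genes are known to also give longer polyadenylated transcripts, also in cells that do not divide. Many H2A and H2B genes lie head to head and share a promoter, and H2B promoters are known for an octamer element bound by the transcription factor OCT1.

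The stem-loops are shown because they set these transcripts apart from other mRNA. A stretch of 16 bases was searched in the GENCODE 29 transcripts, on the strand of the gene, with a stem of 6 base pairs that opens with GG, around a loop of 4 bases made of T, then T, A or C, then TC, TA or AC. It was found in 68 of 19669 protein-coding genes, of which 28 were clustered histone genes. Annotated transcripts of many other members end near the stop codon and could not show it. The stretches of some members that are described further on follow, written as DNA from 5′ to 3′ with the stem-loop in capitals.
HIST2H2BE: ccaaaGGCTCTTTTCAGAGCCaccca
HIST3H2A: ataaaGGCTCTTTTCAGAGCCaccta
HIST1H2AC: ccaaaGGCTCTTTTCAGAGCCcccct
HIST1H2BC: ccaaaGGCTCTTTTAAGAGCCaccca
HIST1H2BD: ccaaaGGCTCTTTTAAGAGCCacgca
HIST1H3E: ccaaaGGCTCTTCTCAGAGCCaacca
HIST1H3H: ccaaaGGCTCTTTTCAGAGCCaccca
HIST1H4H: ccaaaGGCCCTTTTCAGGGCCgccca
Annotated transcripts that run on past the stem-loop were common among these genes. The HIST2H2BE transcript continued for 1729 bases after it, the longest of HIST1H2AC for 1128 bases and that of HIST3H2A for 390 bases. Of the 18 members with enough counts to be tested, 10 had a transcript that ran at least 100 bases past the stem-loop, against 9 of the 55 others.

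The octamer is shown because it was found in most promoters of H2A and H2B genes, the classes that hold most of the counts. Promoters were taken from RefSeq (GRCh38.p14) as the 250 bases before and 50 bases after the start site, and 65 of 73 members had one. The octamer ATTTGCAT, searched on both strands, was present in 14 of 18 H2B promoters (77.8%), 11 of 16 H2A promoters (68.8%), 1 of 12 H3 promoters and in none of the 6 H1 and 13 H4 promoters. Among all 35116 promoters 1.77% held it. HIST1H2BD and HIST3H2A, which are among the better counted members, had no match. The stretches below follow the strand of the H2B gene, with the octamer in capitals.
HIST2H2BE: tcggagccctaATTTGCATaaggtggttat
HIST1H2BC: tttcatacctcATTTGCATagctctgccca
HIST1H2BG: ttgaattctttATTTGCATgaaaggcctat
HIST1H2BH: attaagcacctATTTGCATaaaagacctac
HIST1H2BJ: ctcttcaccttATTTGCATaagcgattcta
HIST1H2BK: ctcttcaccttATTTGCATgagaggtccta
The HIST2H2BE stretch (chr1:149886710-149886739, minus strand) also lies in the promoter of HIST2H2AC on the other strand. The HIST1H2BC stretch (chr6:26124031-26124060, minus strand) is likewise shared with HIST1H2AC, the HIST1H2BG stretch (chr6:26216718-26216747, minus strand) with HIST1H2AE, and the HIST1H2BJ stretch (chr6:27132824-27132853, minus strand) with HIST1H2AG. The stretches of HIST1H2BH (chr6:26251554-26251583, plus strand) and HIST1H2BK (chr6:27146886-27146915, minus strand) were found in no other promoter of the members that had one. HIST1H2AH, an H2A gene on the plus strand of chromosome 6, had none, so sharing with it could not be seen. The TATA box TATAAA was found in 66.2% of member promoters, against 11.5% of all promoters, and CCAAT in 84.6% against 34.6%. All H1, H2A, H2B and H3 promoters in the table held CCAAT, but only 3 of 13 H4 promoters did. These matches are a description of the letters and not of bound factors.

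The libraries held 15826923 to 18861603 counts on genes, and only 289 to 1225 of these belonged to clustered histone genes. At this depth no member reached a mean count of 100 over the 8 libraries, the level that had been set for a well counted gene. At least 20 counts on average, a level set after the counts were seen, were reached by 7 members: HIST1H2BK, HIST1H1C, HIST2H2BE, HIST1H2BD, HIST3H2A, HIST1H2AC and HIST1H4H. A further 11 were tested with fewer counts. Of the 55 members that failed edgeR's filter on low counts, 16 had no count in any library and 8 had 1 to 9 counts in all. A count of 0 allows up to 3 counts in a library by counting error. H2B genes held 45.8% of all member counts, H2A genes 23.1%, H1 genes 16.6%, H4 genes 7.86% and H3 genes 6.70%. The tested members were 2 of H1, 4 of H2A, 7 of H2B, 2 of H3 and 3 of H4. Passing the filter needs counts in only a pair of libraries: 8 of the 18 exceeded the limit of 0.556 CPM (counts scaled to library size) in both libraries of at most 1 group, whereas 6 did so in all 4 groups. Counts of members called are therefore a description of these 18 genes and not of the 73.

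**Figure D1:**
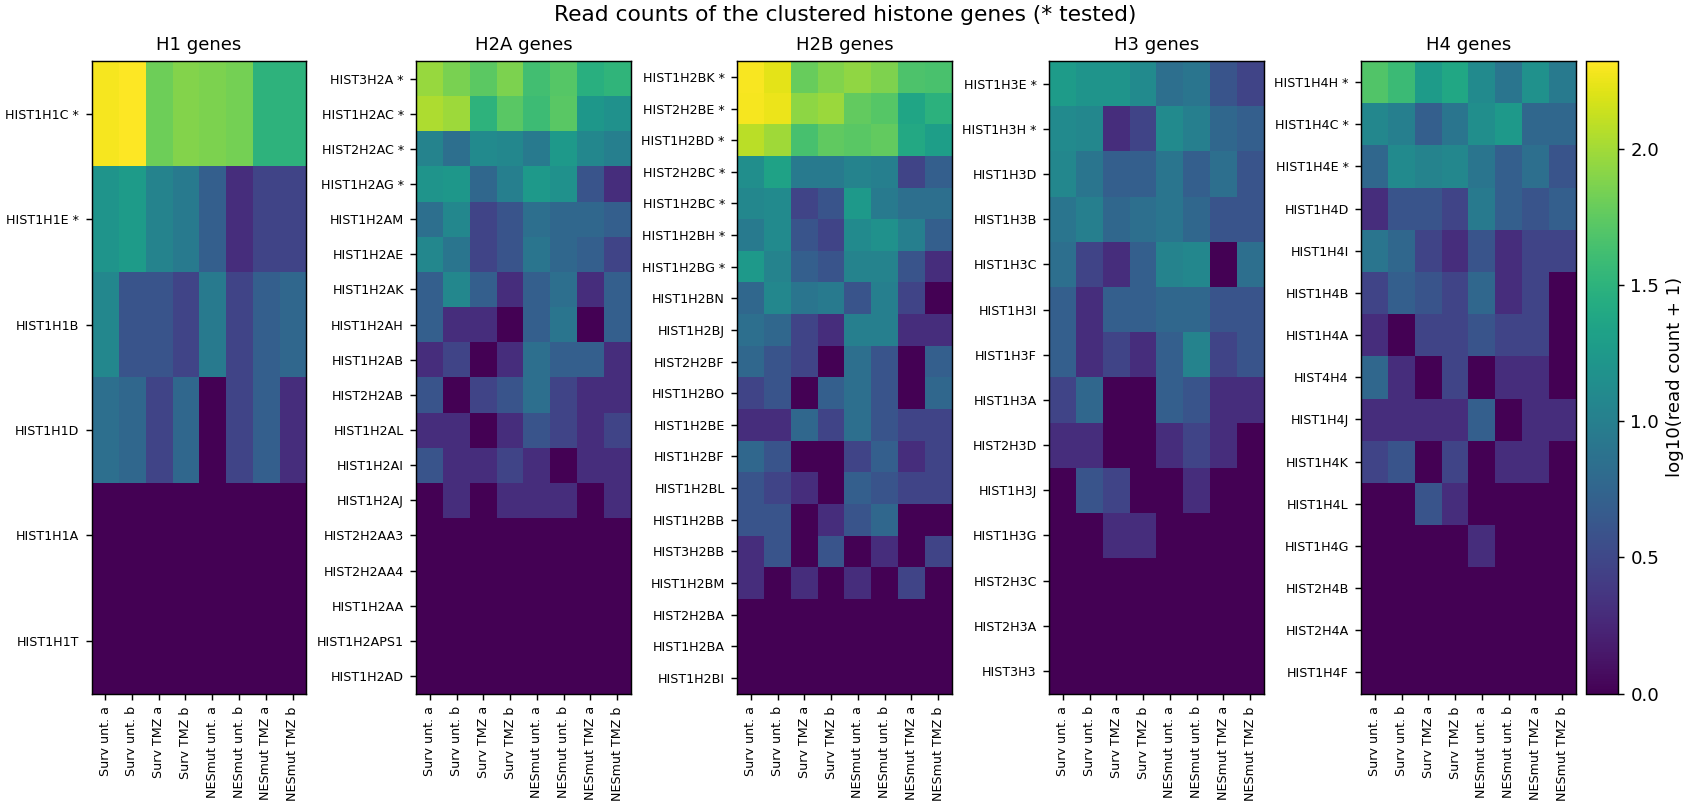
Colour gives log10(read count + 1) for each of the 73 members (vertical axis, by class and sorted by total count) in each of the 8 libraries (horizontal axis; unt., untreated; NESmut, SurvNESmut-GFP). Tested members carry an asterisk. Members differed widely in count within each class, and 16 members stayed at 0 in all libraries.

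Copies that are nearly identical could not be told apart by short reads. At least 50% of the 50-base stretches of a gene occurred in another member for 7 of the 16 genes at 0, among them HIST2H2AA3 and HIST2H2AA4, HIST2H3A and HIST2H3C, and HIST2H4A and HIST2H4B. How reads with several matches were counted is not stated, and its part in these zeros was not tested. None of the 18 tested members reached that level. For HIST2H2AC 30.5%, for HIST1H2BK 22.6% and for HIST2H2BE 8.11% of stretches were shared, which leaves these values less certain than those of HIST1H1C with 0%. HIST2H2BC, a transcribed pseudogene in the annotation, overlaps exons of HIST2H2BD, and its counts cannot be assigned to one of them.

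Summed over all members, the level was lower after TMZ in both clones, and lower in SurvNESmut-GFP than in Surv-GFP. The sum was 66.4 and 61.8 CPM in untreated Surv-GFP cells and 26.4 and 34.3 CPM after TMZ. It was 33.7 and 33.1 CPM in untreated SurvNESmut-GFP cells and 17.5 and 18.2 CPM after TMZ. Every TMZ library was below both untreated libraries of its clone, and untreated SurvNESmut-GFP libraries lay near the TMZ-exposed Surv-GFP libraries. The means were 64.1 ± 3.23 and 30.4 ± 5.59 CPM in Surv-GFP and 33.4 ± 0.434 and 17.8 ± 0.523 CPM in SurvNESmut-GFP (SD, n = 2). Relative to untreated cells, the TMZ level was 0.474 for Surv-GFP and 0.535 for the other clone, and the ratio of SurvNESmut-GFP to Surv-GFP was 0.521 without and 0.588 with TMZ. No test was made on sums, since an exact permutation test of 2 against 2 libraries cannot go below p = 0.333. In these bulk samples, fewer cells in S phase and less histone RNA per cell cannot be told apart.

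The classes were also summed one by one. H1 genes summed to 12.7 ± 0.434 CPM untreated and 4.73 ± 0.785 CPM with TMZ in Surv-GFP, a log2 ratio of -1.42, which was -0.93 without HIST1H1C. In SurvNESmut-GFP they summed to 4.28 ± 0.392 and 2.43 ± 0.0437 CPM, a log2 ratio of -0.82, which turned to 0.23 without HIST1H1C. The H2B genes stood at 30.7 ± 1.88 and 13.3 ± 2.16 CPM in Surv-GFP and at 14.95 ± 0.557 and 7.54 ± 0.574 CPM in the other clone. For H2A genes the sums were 13.1 ± 1.18 and 7.61 ± 2.14 CPM in Surv-GFP and 8.46 ± 1.08 and 4.59 ± 0.288 CPM in SurvNESmut-GFP. H3 genes gave 3.28 ± 0.344 and 1.91 ± 0.0565 CPM, and 3.10 ± 0.0923 and 1.49 ± 0.122 CPM. The H4 genes, at 4.32 ± 0.254 and 2.78 ± 0.452 CPM and at 2.57 ± 0.654 and 1.81 ± 0.504 CPM, were the only class in which a TMZ and an untreated library overlapped, namely in SurvNESmut-GFP (all SD, n = 2). The H3 sum was alike in both untreated clones, with a ratio of 0.946, whereas that of H1 was 0.338.

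**Figure D2:**
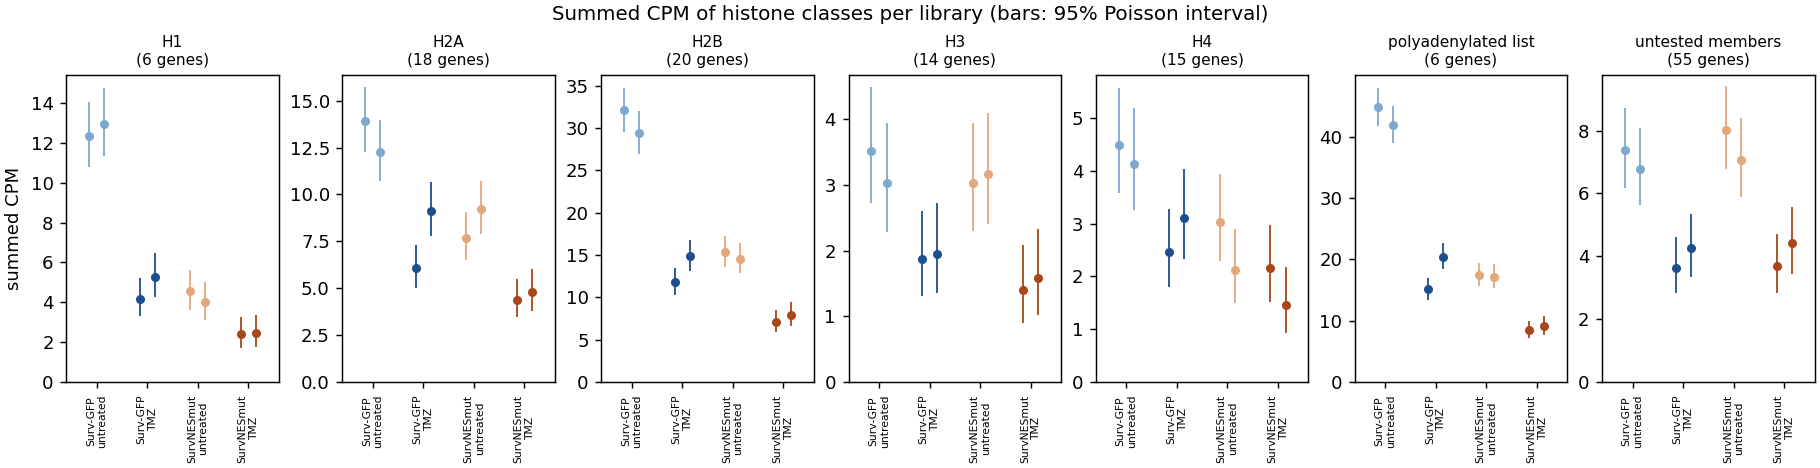
Summed CPM (vertical axes, starting at 0) of each histone class, of the 6 genes known for polyadenylated transcripts and of the 55 untested members, per library (points, with 95% Poisson intervals that cover counting error only) in the 4 groups on the horizontal axes. TMZ libraries sit below untreated ones in each clone except for H4 in SurvNESmut-GFP, and the untested members show alike sums in both clones.

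A list of 6 genes known to also give polyadenylated transcripts, namely HIST1H1C, HIST1H2AC, HIST1H2BC, HIST1H2BD, HIST1H2BK and HIST2H2BE, held 60.0% of all member counts. The list need not be complete. Outside it, annotated transcripts with the poly(A) signal AATAAA near their end ran 1862 bases past the stem-loop for HIST1H3E, 1655 for HIST1H4H and 1640 for HIST1H2BH. Those of HIST1H1C and HIST1H2BK showed neither stem-loop nor AATAAA there. Their share was 67.4% and 67.9% in untreated Surv-GFP libraries, 57.1% and 59.5% after TMZ, 51.7% and 51.9% in untreated SurvNESmut-GFP libraries and 48.5% and 49.8% after TMZ. Their summed level was 43.4 ± 1.99 CPM untreated and 17.8 ± 3.79 CPM after TMZ in Surv-GFP, and 17.3 ± 0.168 and 8.78 ± 0.425 CPM in SurvNESmut-GFP (SD, n = 2). All other members summed to 20.7 ± 1.24 and 12.6 ± 1.81 CPM, and to 16.1 ± 0.266 and 9.07 ± 0.0979 CPM. The ratio of TMZ to untreated was thus 0.410 and 0.508 for the 6 genes and 0.608 and 0.564 for the others. Between the untreated clones, the ratio was 0.399 for the 6 genes and 0.775 for the others. The 55 untested members alone summed to 7.08 ± 0.411 and 3.94 ± 0.432 CPM in Surv-GFP and to 7.54 ± 0.685 and 4.05 ± 0.516 CPM in SurvNESmut-GFP, so that this sum was lower after TMZ in both clones, while the ratio between the clones was 1.07 untreated and 1.03 with TMZ.

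In Surv-GFP cells, 12 of the 18 tested members fell after TMZ and none rose, where 28.9% of the 14201 tested genes fell and 30.1% rose (edgeR's quasi-likelihood test, Benjamini-Hochberg adjusted p under 0.05). At an unadjusted p under 0.05 again none rose and 12 fell, and DESeq2 called none higher and 7 lower. All 7 tested H2B genes, among them the pseudogene HIST2H2BC, fell. So did 2 of 4 H2A genes, 1 of 2 H1, 1 of 2 H3 and 1 of 3 H4 genes. This tally was favoured by the filter: HIST2H2BC, HIST1H2BC, HIST1H2BG and HIST1H3H exceeded its limit in both libraries of the untreated Surv-GFP group only. HIST1H2AG and HIST1H2BH passed the filter only through untreated libraries of both clones. All of these were thus high in untreated cells, and none exceeded the limit in a TMZ library. The median log2 fold change of the tested members was -1.08, against 0.00 over all tested genes. Of the 6 members that passed the filter in all 4 groups, 5 fell.

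HIST1H1C, which encodes the linker histone H1.2, had 10.6 and 11.5 CPM untreated and 3.37 and 4.42 CPM after TMZ in Surv-GFP. Both TMZ libraries lay far below both untreated ones, and the log2 fold change was -1.51 (SE 0.15, adjusted p = 2.42e-07). HIST1H2BK, an H2B gene, had 10.7 and 9.27 CPM untreated and 3.15 and 4.30 CPM after TMZ, a log2 fold change of -1.43 (SE 0.16, adjusted p = 1.17e-06). HIST2H2BE, another H2B gene whose long transcript is polyadenylated, had 10.5 and 9.93 CPM and 4.49 and 5.34 CPM, which gave -1.06 (SE 0.15, adjusted p = 1.26e-05). HIST1H2BD had 6.45 and 5.30 CPM and 2.30 and 3.21 CPM, and HIST1H2AC 5.85 and 5.24 CPM and 1.66 and 2.98 CPM. These fell by 1.10 (SE 0.20) and 1.27 (SE 0.23) on the log2 scale, with adjusted p = 0.000143 and 0.000191. For each of these genes the groups did not overlap, and the call held when any 1 of the 8 libraries was left out.

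HIST1H2BC, head to head with HIST1H2AC on the shared octamer, rested on few reads: 11 and 12 counts untreated and 2 and 3 after TMZ. It fell by 2.13 on the log2 scale (SE 0.61, adjusted p = 0.00685). The H3 gene HIST1H3H had 12 and 11 counts untreated and 1 and 2 after TMZ in Surv-GFP. With 3 counts against 23, the ratio was 0.132 with a 95% interval of 0.0254 to 0.437, and its call (adjusted p = 0.00107) held without any 1 library. HIST1H4H, the best counted H4 gene, had 48 and 37 counts and 18 and 23 counts, a log2 fold change of -1.03 (SE 0.29, adjusted p = 0.00622). HIST1H2BG with 17 and 10 counts against 4 and 3 fell by 1.89 (adjusted p = 0.00614). HIST1H2BH with 8 and 12 against 3 and 2 fell by 1.93 (adjusted p = 0.0137). HIST1H2AG with 15 and 16 against 5 and 9 fell by 1.11 (adjusted p = 0.0396), and HIST2H2BC with 13 and 21 against 8 and 8 fell by 1.06 (adjusted p = 0.0408).

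These last calls hung on single libraries. Without the TMZ-exposed Surv-GFP library a, 7 members remained lower, and the adjusted p was 0.0717 for HIST1H2BC, 0.0561 for HIST1H2BH, 0.0816 for HIST1H4H, 0.297 for HIST1H2AG and 0.161 for HIST2H2BC. Without TMZ library b it was 0.0819 for HIST1H2BH and 0.109 for HIST2H2BC. Without the untreated library a it was 0.0895 for HIST1H2BG, 0.0734 for HIST1H4H and 0.0951 for HIST1H2AG, and without the untreated library b 0.113 for HIST1H2BH, 0.138 for HIST1H2AG and 0.336 for HIST2H2BC, whose fold change then was -0.66. Leaving out an untreated SurvNESmut-GFP library, a or b, changed the pooled spread and gave 0.0595 and 0.0589 for HIST1H2AG and 0.0624 and 0.0620 for HIST2H2BC.

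The remaining 6 tested members did not pass in Surv-GFP. HIST3H2A, an H2A gene of the small cluster on chromosome 1, had 4.93 and 3.86 CPM untreated and 2.89 and 4.13 CPM after TMZ, so its libraries overlapped. Its log2 fold change was -0.33 with a 95% interval of -0.78 to 0.11, and it passed as lower only without the TMZ-exposed Surv-GFP library b (-0.64, adjusted p = 0.0471). HIST2H2AC, which shares its octamer stretch with HIST2H2BE, had 10 and 6 counts untreated and 12 and 11 after TMZ, a log2 fold change of 0.53 (95% interval -0.49 to 1.56), whereas HIST2H2BE fell. HIST1H4E was at 0.32 (95% interval -0.73 to 1.36), HIST1H3E at -0.27 (-1.01 to 0.47), HIST1H4C at -0.83 (-1.89 to 0.24) and HIST1H1E at -0.85 (-1.71 to 0.02) on the log2 scale.

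**Figure D3:**
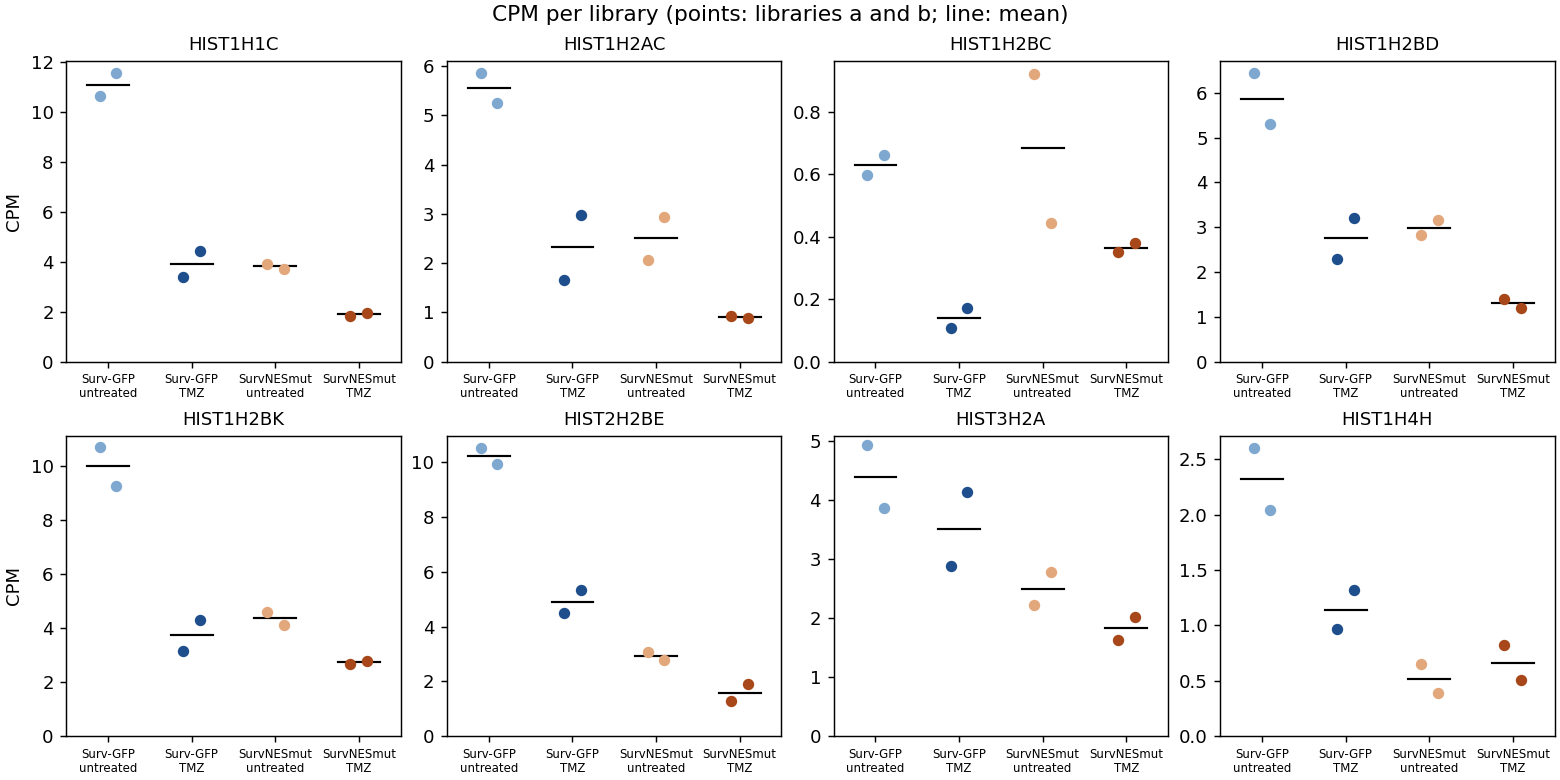
CPM (vertical axes, starting at 0) of the 6 genes known for polyadenylated transcripts and of HIST3H2A and HIST1H4H in libraries a and b (points) of the 4 groups, with the group mean as a line. HIST1H1C fell from 11.1 to 3.89 CPM on average in Surv-GFP, while the libraries of HIST3H2A overlapped.

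In SurvNESmut-GFP cells, 8 of 18 tested members fell after TMZ and none rose, where 19.1% of all tested genes fell and 18.6% rose. At an unadjusted p under 0.05 none rose and 9 fell, and DESeq2 called none higher and 5 lower. The 8 were 1 of 2 H1, 2 of 4 H2A, 4 of 7 H2B and 1 of 3 H4 genes. HIST1H4C exceeded the filter's limit in both libraries of the untreated SurvNESmut-GFP group only, where it was high. HIST1H2AG passed the filter only through the untreated libraries of both clones, where it was high. The filter thus favoured the calls of HIST1H4C and HIST1H2AG. Of the 6 members over the filter in all groups, 5 fell. The median log2 fold change was -0.96, against 0.00 over all tested genes. HIST1H1C had 3.90 and 3.72 CPM untreated and 1.81 and 1.95 CPM after TMZ, a log2 fold change of -1.02 (SE 0.22, adjusted p = 0.00144). HIST1H2BD had 2.82 and 3.17 CPM and 1.40 and 1.198 CPM, which gave -1.19 (SE 0.27, adjusted p = 0.00209). HIST1H2AG had 17 and 14 counts untreated and 3 and 1 after TMZ, a log2 fold change of -2.74 (SE 0.59, adjusted p = 0.00161). The libraries did not overlap in any of these genes, and their calls held without any 1 library.

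The other calls in SurvNESmut-GFP were weaker. HIST1H2AC had 2.06 and 2.94 CPM untreated and 0.935 and 0.882 CPM after TMZ, a log2 fold change of -1.45 (SE 0.34, adjusted p = 0.00306), and 0.0523 without the untreated library b. HIST2H2BE had 3.09 and 2.78 CPM and 1.29 and 1.89 CPM, which gave -0.89 (SE 0.24, adjusted p = 0.00825). HIST1H2BK had 4.61 and 4.11 CPM and 2.69 and 2.77 CPM, which gave -0.68 (SE 0.20, adjusted p = 0.0157). Without the untreated library a the adjusted p was 0.0601 for HIST2H2BE and 0.105 for HIST1H2BK, and without the TMZ library a 0.105 and 0.0570. HIST1H4C, an H4 gene, had 13 and 17 counts untreated and 5 and 5 after TMZ (log2 fold change -1.42, adjusted p = 0.0253). HIST1H2BG had 10 and 10 against 3 and 1 (log2 fold change -2.12, adjusted p = 0.0177). HIST1H4C lost its call without the untreated library b (0.168), the TMZ library a (0.123) or b (0.0758), and HIST1H2BG without the untreated library a (0.0715) or b (0.0781) or the TMZ library b (0.122), all as adjusted p.

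HIST1H2BC, with 17 and 8 counts untreated and 6 and 6 after TMZ, stood at -0.90 in SurvNESmut-GFP and did not pass (adjusted p = 0.166). HIST1H4H, with 12 and 7 counts against 14 and 8, had overlapping libraries and stood at 0.35 (95% interval -0.64 to 1.34). HIST3H2A stood at -0.45 (95% interval -1.04 to 0.13). The remaining 7 that did not pass ranged from -1.48 for HIST2H2BC to -0.14 for HIST1H4E. Calls in both clones were made for 7 members, in Surv-GFP alone for 5, in SurvNESmut-GFP alone for 1 and in neither for 5. An unequal call does not show an unequal effect, which was tested as the difference of the TMZ effects.

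**Figure D4:**
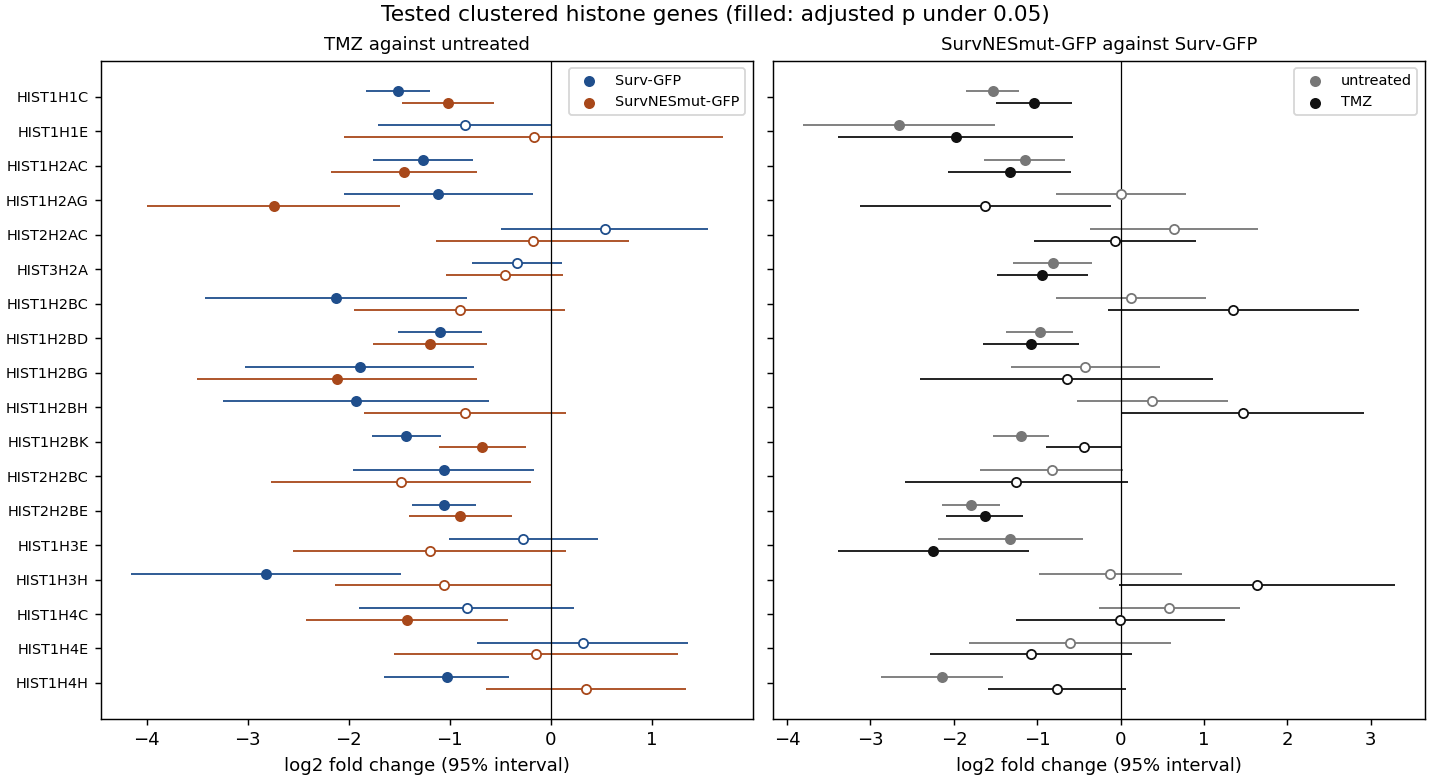
Log2 fold change with 95% interval (horizontal axes) of the 18 tested members (vertical axis, by class), with filled points for an adjusted p under 0.05. On the left TMZ is compared with untreated in each clone, and on the right SurvNESmut-GFP with Surv-GFP for each exposure. No filled point lies above 0 in either panel, and intervals were widest for genes with few counts, among them HIST1H3H with 3 counts in TMZ-exposed Surv-GFP libraries.

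For most members the TMZ effect did not differ between the clones beyond its error. HIST1H2BK was the only one of 18 past the threshold, where 16.6% of all tested genes were higher and 20.2% lower: its log2 fold change upon TMZ was higher by 0.75 in SurvNESmut-GFP (SE 0.27, adjusted p = 0.0367), which means a smaller fall. None was lower by the threshold, 0 were lower and 2 higher at an unadjusted p under 0.05, and DESeq2 called none in either direction. The call for HIST1H2BK was lost without 6 of the 8 libraries. The adjusted p was 0.116 without the untreated and 0.161 without the TMZ-exposed Surv-GFP library a, 0.0558 and 0.115 without untreated SurvNESmut-GFP library a and b, and 0.0587 and 0.0675 without TMZ-exposed SurvNESmut-GFP library a and b. HIST1H4H had the next smallest p, with a difference of 1.38 (95% interval 0.20 to 2.55, adjusted p = 0.0622). For HIST1H1C the difference was 0.49 (95% interval -0.09 to 1.08), for HIST2H2BE 0.17 (-0.46 to 0.79), for HIST1H2BD -0.10 (-0.80 to 0.61) and for HIST1H2AC -0.18 (-1.08 to 0.71). These intervals do not leave out differences as large as the TMZ effects of some of these genes, so alike effects are not shown.

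Without TMZ, 9 of 18 tested members were lower in SurvNESmut-GFP than in Surv-GFP and none higher, where 29.4% of all tested genes were lower and 34.7% higher. By DESeq2 8 were lower and none higher, and by an unadjusted p under 0.05 again 9 and none. They were both tested H1 genes, 2 of 4 H2A, 3 of 7 H2B, 1 of 2 H3 and 1 of 3 H4 genes, and included all 6 members over the filter in all groups. HIST2H2BE, at the CPM values given above, was lower by a log2 difference of -1.80 (SE 0.16, adjusted p = 6.71e-08), HIST1H1C by -1.54 (SE 0.15, adjusted p = 1.57e-07) and HIST1H2BK by -1.196 (SE 0.16, adjusted p = 4.75e-06). HIST1H1E, which encodes the linker histone H1.4, had 15 and 18 counts in Surv-GFP and 4 and 1 in SurvNESmut-GFP, a log2 difference of -2.66 (SE 0.54, adjusted p = 0.00044), and it passed the filter only through untreated Surv-GFP libraries. HIST1H4H stood at -2.14, HIST1H2AC at -1.15 and HIST1H2BD at -0.97. HIST1H4H and HIST1H3E exceeded the filter's limit in both libraries of the Surv-GFP groups only, where they were high. HIST3H2A at -0.82 and HIST1H3E at -1.32 passed with adjusted p = 0.00452 and 0.0103. These became 0.0704 and 0.0706 without the untreated Surv-GFP library a, and 0.0609 and 0.0761 without the untreated SurvNESmut-GFP library a. Genes that did not pass ranged from -0.83 for HIST2H2BC (95% interval -1.69 to 0.03) to 0.64 for HIST2H2AC (-0.36 to 1.65). Between these lay HIST1H2AG at 0.00 (95% interval -0.78 to 0.79), HIST1H3H at -0.12, HIST1H2BC at 0.12 and HIST1H2BH at 0.38. HIST1H4E stood at -0.61, HIST1H2BG at -0.42 and HIST1H4C at 0.58.

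With TMZ, 7 of 18 were lower in SurvNESmut-GFP and none higher, where 34.7% of all tested genes were lower and 34.5% higher. Of the 6 members over the filter in all groups, 5 were lower. DESeq2 called 6 lower and none higher, and at an unadjusted p under 0.05 there were 8 and 1. HIST2H2BE differed by -1.63 (SE 0.22, adjusted p = 5.2e-06), HIST1H1C by -1.04 (SE 0.22, adjusted p = 0.000421), and HIST1H2BD by -1.07 (SE 0.27, adjusted p = 0.00226). HIST1H3E had 15 and 12 counts in Surv-GFP and 3 and 2 in SurvNESmut-GFP, a log2 difference of -2.25 (SE 0.54, adjusted p = 0.00147). It exceeded the filter's limit in both libraries of the Surv-GFP groups only, and HIST1H1E in those of the untreated Surv-GFP group only. HIST3H2A at -0.94 and HIST1H2AC at -1.33 (adjusted p = 0.00392 and 0.00273) reached 0.0648 and 0.0639 without the TMZ-exposed Surv-GFP library b. HIST1H1E at -1.98 (adjusted p = 0.0143) reached 0.0686 without TMZ-exposed Surv-GFP library a, and 0.0657 and 0.0502 without TMZ-exposed SurvNESmut-GFP library a and b. HIST1H2BK, at -0.44 (adjusted p = 0.073), did not pass here. Without TMZ-exposed Surv-GFP library a it passed at -0.69 (adjusted p = 0.0177), as did HIST1H2AG at -2.06 (adjusted p = 0.0354). HIST1H3H had 9 counts in SurvNESmut-GFP against 3, a ratio of 3.29 with a 95% interval of 0.82 to 18.9. The clone comparisons and the TMZ comparisons share libraries and are not independent of each other.

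Members with the octamer and members without it are given side by side. Of 8 tested members with an octamer, 7 fell after TMZ in Surv-GFP and 5 in SurvNESmut-GFP, where 28.9% and 19.1% of all tested genes fell. Of 8 with a promoter entry but no octamer, 4 and 2 fell. The filter favoured some of these calls. HIST1H2BC, HIST1H2BG, HIST1H2BH and HIST1H2AG with the octamer, and HIST1H3H without it, exceeded the limit only in untreated libraries. In the clone comparison the counts were 3 of 8 with and 6 of 8 without octamer for untreated cells, and 2 and 5 with TMZ, where 29.4% and 34.7% of all tested genes were lower. For untreated cells the filter favoured HIST1H1E, HIST1H3E and HIST1H4H, which have no octamer. The 8 tested members with an octamer are H2A and H2B genes. Among the 8 without it, only HIST1H2BD and HIST3H2A belong to these classes, so that octamer and class can hardly be told apart in these counts. HIST1H2BD fell after TMZ in both clones and HIST3H2A passed in neither.

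The genes that make and process histone mRNA were counted next. Of 28 tested genes for histone transcription and 3′ end processing, 7 rose and 10 fell after TMZ in Surv-GFP (median log2 fold change -0.05), and 5 rose and 5 fell in SurvNESmut-GFP (median -0.03). Between the clones 10 were higher and 2 lower in untreated SurvNESmut-GFP (median 0.08), and 15 and 7 with TMZ (median 0.22), where SLBP was higher by 0.61. Over all tested genes, 30.1% rose and 28.9% fell after TMZ in Surv-GFP, and 18.6% and 19.1% in SurvNESmut-GFP. The shares between the clones were 34.7% higher and 29.4% lower untreated, and 34.5% and 34.7% with TMZ. SLBP, which binds the stem-loop, had 68.4 and 70.1 CPM untreated and 46.3 and 45.2 CPM after TMZ in Surv-GFP, and 74.0 and 85.1 CPM and 70.3 and 69.7 CPM in SurvNESmut-GFP. It fell by 0.60 (SE 0.07, adjusted p = 8.64e-07) and by 0.18 (SE 0.06, adjusted p = 0.0304) on the log2 scale. NPAT, the coactivator of histone transcription in S phase, had 15.3 and 14.4 CPM and 13.3 and 11.7 CPM in Surv-GFP, and 15.5 and 14.0015 CPM and 13.6 and 13.9 CPM in SurvNESmut-GFP. It passed in neither clone, with -0.25 (adjusted p = 0.0536) and -0.10 (adjusted p = 0.472). Among the genes with the smallest p in Surv-GFP, LSM10 of the U7 particle rose by 0.61, ZNF473, a zinc finger protein of the same machinery, by 0.64, and SRRT fell by 0.40 on the log2 scale. In SurvNESmut-GFP, POU2F1, which encodes the octamer factor OCT1, fell by 0.34, SRRT by 0.28 and SNRPB by 0.15, while ZCCHC11 stood higher by 0.31.

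S phase and DNA replication genes fell in most cases in Surv-GFP, where 23 of 32 were lower and 2 higher (median -0.34), beside 28.9% and 30.1% of all tested genes. In SurvNESmut-GFP 11 were lower and 5 higher (median -0.02), where 19.1% of all tested genes were lower and 18.6% higher. The replication helicase genes MCM6, MCM2 and MCM5 fell by 1.10, 0.96 and 0.82 in Surv-GFP and by 0.83, 0.33 and 0.45 in SurvNESmut-GFP on the log2 scale. Cyclin A2 (CCNA2) fell by 1.59 and 0.71. The difference of the TMZ effects was higher for 23 and lower for 2 of these 32 genes, beside 16.6% and 20.2% of all tested genes. Between the clones, 23 of 32 were higher and 2 lower in untreated SurvNESmut-GFP (median 0.45), and 30 were higher and 0 lower with TMZ (median 0.64), with 1.13 for MCM2 and 1.15 for E2F1. Over all tested genes 34.7% and 34.5% were higher, and 29.4% and 34.7% lower. The part of the cell cycle in the histone differences was not tested.

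Histone chaperones, which carry histones to chromatin, fell more often than they rose in Surv-GFP, with 15 of 28 lower and 6 higher, where 28.9% of all tested genes fell and 30.1% rose. In SurvNESmut-GFP 9 were lower and 5 higher, beside 19.1% and 18.6% of all tested genes. The centromeric chaperone HJURP fell by 1.13 and 0.52, ANP32E by 0.75 in both clones, NASP by 0.50 and 0.32 and RBBP4 by 0.45 and 0.28 on the log2 scale. Between the clones, 17 of 28 were higher and 3 lower in untreated SurvNESmut-GFP, and 20 and 5 with TMZ. The shares of all tested genes were 34.7% higher and 29.4% lower untreated, and 34.5% and 34.7% with TMZ. CHAF1B, a subunit of chromatin assembly factor 1, was higher by 1.39 and 2.15.

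Of 10 tested variant histone genes outside the clusters, 2 rose and 4 fell in Surv-GFP (median log2 fold change 0.03), and 1 rose and 7 fell in SurvNESmut-GFP (median -0.36). Over all tested genes, 30.1% rose and 28.9% fell in Surv-GFP, and 18.6% and 19.1% in SurvNESmut-GFP. H1F0, the linker histone H1.0 known from cells that leave the cycle, had 258 and 243 CPM untreated and 540 and 620 CPM after TMZ in Surv-GFP, a rise of 1.21 on the log2 scale (SE 0.07, adjusted p = 4.04e-10). In SurvNESmut-GFP it had 255 and 258 CPM and 222 and 260 CPM, and it did not pass (-0.09, adjusted p = 0.358). H1F0 thus rose where HIST1H1C fell. H2AFX, the H2A variant that is phosphorylated at DNA breaks, had 160.1 and 160.2 CPM and 89.8 and 91.7 CPM in Surv-GFP, and 157 and 173 CPM and 126 and 126 CPM in SurvNESmut-GFP. It fell by 0.82 (SE 0.05, adjusted p = 1.5e-09) and 0.39 (SE 0.05, adjusted p = 1.98e-05). H2AFZ fell by 0.15 and 0.19 (adjusted p = 0.0149 and 0.00549). H3F3B, for the replacement histone H3.3, rose by 0.16 in Surv-GFP (adjusted p = 0.00684) and fell by 0.26 in SurvNESmut-GFP (adjusted p = 0.000382). The centromeric CENPA fell by 1.69 and 1.40 on the log2 scale.

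Other RNAs that carry no poly(A) tail were looked at because of how histone mRNA ends. Of 30 such genes, 20 were in the file and 5 were tested. Their summed level was 14.7 and 14.5 CPM in untreated Surv-GFP libraries, 14.7 and 12.2 CPM after TMZ, 15.1 and 15.9 CPM in untreated SurvNESmut-GFP libraries and 15.3 and 11.0 CPM after TMZ. Each TMZ group thus held 1 library at the untreated level. Of the 5, SNORD17 fell in Surv-GFP (-0.72, adjusted p = 0.0451) and none passed in SurvNESmut-GFP. Whether polyadenylated RNA was selected is not stated in the labels or methods, and its part in the histone counts was not tested.

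The labels were checked once on other genes. BIRC5 had 1113 to 1152 CPM in untreated Surv-GFP, 1938 to 2029 CPM after TMZ, 407 to 414 CPM in untreated SurvNESmut-GFP and 253 to 262 CPM after TMZ, and these reads do not part plasmid from endogenous transcripts. The p53 target CDKN1A was at 77.3 to 119 CPM in the 4 untreated and 429 to 975 CPM in the 4 TMZ libraries. Of 8 glioma and glial markers VIM, NES and CD44 were high in all libraries at 524 CPM or more, while GFAP was at 0 to 0.921 CPM. Of the 7 that were tested, 1 rose and 5 fell after TMZ in Surv-GFP and 2 rose and 4 fell in SurvNESmut-GFP. Between the clones, 2 were higher and 4 lower in untreated SurvNESmut-GFP, with NES at 0.39 and S100B at -4.26 on the log2 scale, and 3 were higher and 3 lower with TMZ. Over all tested genes, 30.1% rose and 28.9% fell after TMZ in Surv-GFP, and 18.6% and 19.1% in SurvNESmut-GFP. The shares between the clones were 34.7% higher and 29.4% lower untreated, and 34.5% and 34.7% with TMZ. The 8 glioma and glial markers summed to 5972 to 6033 CPM in untreated Surv-GFP, 3871 to 3957 with TMZ, 4662 to 4858 in untreated SurvNESmut-GFP and 4131 to 4269 with TMZ, and their part in the histone differences was not tested. Of 8 markers of immune, endothelial, epithelial and neuronal cells, PTPRC, PECAM1, CDH5, EPCAM, CDH1 and RBFOX3 were at 0.389 CPM or less. These 8 summed to 13.3 to 14.2 CPM in untreated Surv-GFP, 19.3 to 20.9 with TMZ, 17.9 to 19.002 in untreated SurvNESmut-GFP and 21.2 to 24.3 with TMZ, mostly from CD68, and their part in the histone results was not tested.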

How the data were processed

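Total RNA of LN229 clones Surv-GFP and SurvNESmut-GFP, untreated or exposed to TMZ, was sequenced by Illumina, and the 8 libraries were grouped by their labels. The deposited file holds raw read counts by symbol for 26364 genes, not normalized by the authors, of which 19501 had a count. A further 2 rows name no gene, 11.2% to 14.3% (no feature) and 1.19% to 1.28% (ambiguous) of all counts, and were left out. The submitters' processing notes list STAR 2.5.0b, Cufflinks 2.2.1 and edgeR. The counting program, annotation, genome build, strandedness and selection of RNA are not stated in the labels, headers or methods. The authors' own results for 5 comparisons (fold change, abundance, test statistic and FDR per gene) were not used. The study's legends speak of independent biological replicates, each in technical duplicates, for these clones. Which of these the letters a and b are is not stated, so p-values measure only the spread between the libraries, which may be technical.

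Counts were fitted in R 4.3.3 with edgeR 4.0.16 (TMM, low-count filter by group, quasi-likelihood F test of earlier versions, group means of all 8 libraries), limma 3.58.1 and, as an alternative, DESeq2 1.42.0. This tested 14201 genes in 5 contrasts, with Benjamini-Hochberg adjustment over all of them at 0.05. The common biological coefficient of variation was 4.09%. CPM uses TMM-scaled library sizes. The SE of a log2 fold change is its size divided by the square root of F. Intervals for counts and the limit of 3 counts cover counting error only. With 2 libraries a group no library could be tested as an outlier. The fit was tested on simulated data.

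Members were chosen by symbol, and members and gene lists were chosen with earlier results of these data known. Named with values were, by a rule, the 3 members of smallest p per direction and contrast past the threshold, the genes known for polyadenylated transcripts and, from other lists, SLBP, NPAT, H2AFX, H2AFZ, H1F0, H3F3B and up to 4 genes of smallest p. All other tested members were added after their values were seen, so that each is accounted for. The mean count of 100 set for well counted genes was met by none, and 20 was set afterwards. Transcripts came from GENCODE 29 and promoters from RefSeq (GRCh38.p14), and neither was used to convert coordinates. Alternatives were DESeq2's size factors, library size alone, no filter, a filter of 1 CPM in 2 libraries, DESeq2, edgeR 4's method, a robust prior, a replicate block, only the 4 libraries compared, each library left out, and sums without the polyadenylated list or the member with most counts.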

Additional observations from a re-analysis of the deposited data

Results flagged for a closer look

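A difference of the TMZ effect between the clones (SurvNESmut-GFP minus Surv-GFP, edgeR's quasi-likelihood test, log2 scale) passed the threshold for these of the genes named. Among clustered histone genes it was HIST1H2BK at 0.75 (adjusted p = 0.0367), with means of 4.36 and 2.73 CPM against 10.0 and 3.73 CPM. That call was lost without 6 of the 8 libraries, left out one by one, and with DESeq2 (adjusted p = 0.108). Of variant histone genes, H2AFX differed by 0.43 (adjusted p = 0.000319), H1F0 by -1.30 (adjusted p = 7.29e-08) and H3F3B by -0.42 (adjusted p = 0.000116). Of genes for histone mRNA, SLBP differed by 0.41 (adjusted p = 0.00203), LSM10 by -0.47 and ZNF473 by -0.37. Among S phase genes CCNA2 differed by 0.88, MCM2 by 0.62, MCM5 by 0.37, MCM6 by 0.27 and E2F1 by 0.34. The chaperone genes HJURP and CHAF1B differed by 0.61 and 0.77. Among markers the difference was 0.96 for OLIG2, 0.39 for VIM and 0.24 for NES. BIRC5 differed by -1.48 and CDKN1A by -1.56. Adjusted p over the genes without a printed value ranged up to 0.022, for ZNF473.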

How the results depend on the processing

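The members counted as lower after TMZ depended on the test, the filter and single libraries. In Surv-GFP 12 became 6 with a filter of 1 CPM in 2 libraries, which left 7 members tested, and 7 with DESeq2, and ranged from 7 to 14 when each library was left out. In SurvNESmut-GFP 8 became 5 with each of these alternatives and ranged from 5 to 8. The count with a higher TMZ effect in SurvNESmut-GFP, 1, became 2 without a filter, where HIST1H4H joined (1.40, adjusted p = 0.0498), 0 with DESeq2, and 0 to 1 when each library was left out. With TMZ, 0 to 1 members were higher in SurvNESmut-GFP when each library was left out, namely HIST1H2BH without TMZ-exposed SurvNESmut-GFP library b (1.84, adjusted p = 0.0438). The log2 ratio of the summed level of all members in Surv-GFP, -1.08, was -0.72 without the polyadenylated list and ranged from -1.28 to -0.90 when each library was left out. In SurvNESmut-GFP it was -0.90, and -0.87 with library size alone, -0.83 without the list and -0.94 without the member with the most counts, with -0.93 to -0.87 when each library was left out. The H1 sum there turned to 0.23 without HIST1H1C, its only member on that list. Deviations of same-lettered libraries correlated at -0.067 to 0.083, so the letters were not taken as a pairing. With a replicate block the count lower in Surv-GFP was 11, since HIST1H2AG (-1.11) had adjusted p = 0.0533; no other member's call changed. In the 4 contrasts with calls lower, no called member changed sign under any alternative. The cause of these changes was not tested. A depth of 289 to 1225 member counts per library limits single genes most.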
